A study of Mus musculus with 8 samples.

Results

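The genes described here are 10 genes of the colon crypt that mark its stem cells or are switched on by Wnt signalling and, for several of them, dampen it: Lgr5, Ascl2, Smoc2, Tnfrsf19, Axin2, Rnf43, Znrf3, Nkd1, Sox9 and Ephb3. They were taken by symbol from a table of 18806 genes, and all 10 were found, had a count above 0 in each of the 8 libraries and passed the filter on low counts. The libraries came from colon tissue of mice with colitis from dextran sulfate sodium (DSS), a sulfated polysaccharide given to mice to injure the colon lining. A group of 4 mice had DSS alone, and a group of 4 had DSS together with Alistipes putredinis, a gut bacterium (DSS+AP). Each library is 1 mouse, chosen at random within its group. The design therefore asks how these genes stood in colitic colon with and without the bacterium. All mice had DSS, so no value can be read against an uninjured colon. Strain, sex, age, doses and the day of sampling are not given in the sources used here.

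Crypts of the colon are renewed from stem cells at their base. These cells depend on Wnt ligands, which stabilise beta-catenin so that it can act with TCF factors on its target genes, and on R-spondins, which bind Lgr receptors and strengthen the Wnt signal. Many targets feed back on the pathway: Rnf43 and Znrf3 are membrane ubiquitin ligases that remove Frizzled receptors, Axin2 is a scaffold of the complex that destroys beta-catenin, and Nkd1 binds Dishevelled. DSS injury is known to deplete Lgr5-positive cells, and crypts are rebuilt as the colon heals.

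Library totals ran from 16089081 to 17104290 estimated counts. Values are CPM, counts scaled to the size of the library, and 3 counts, taken as the floor of detection, were 0.167 to 0.186 CPM. This floor covers counting error only. Over all genes DSS 2 stood apart from part of its group. Its chi-square per gene was 23.3 against DSS 3 but 51.3 against DSS 1 and 81.3 against DSS 4. Against the 4 DSS+AP libraries the value of DSS 2 was 27.7 to 43.7. DSS 4 stood at 62.2 to 81.3 against the other DSS libraries. DSS+AP 2 stood further from its group, at 43.3 to 63.9, than the other DSS+AP libraries did from each other (11.2 to 12.4). Its value against DSS 2 was 39.0. Of the 14578 genes tested, 8.84% were called higher and 20.4% lower with the bacterium, by edgeR's quasi-likelihood test at a Benjamini-Hochberg adjusted p threshold of 0.05 over all tested genes. Groups that did not overlap were found in 10.8% of genes in the upward and 19.6% in the downward direction. Against this background, 7 of the 10 genes were higher, 1 was lower, and 2 did not pass. The same 7 and 1 were those whose groups did not overlap. The median log2 fold change of the 10 was 0.79, beside 0.02 over all tested genes. Each log2 fold change compares the 4 DSS+AP mice with the 4 DSS mice and is followed by its SE. In bulk tissue, fewer cells of a type and less RNA per cell cannot be told apart.

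**Figure D1:**
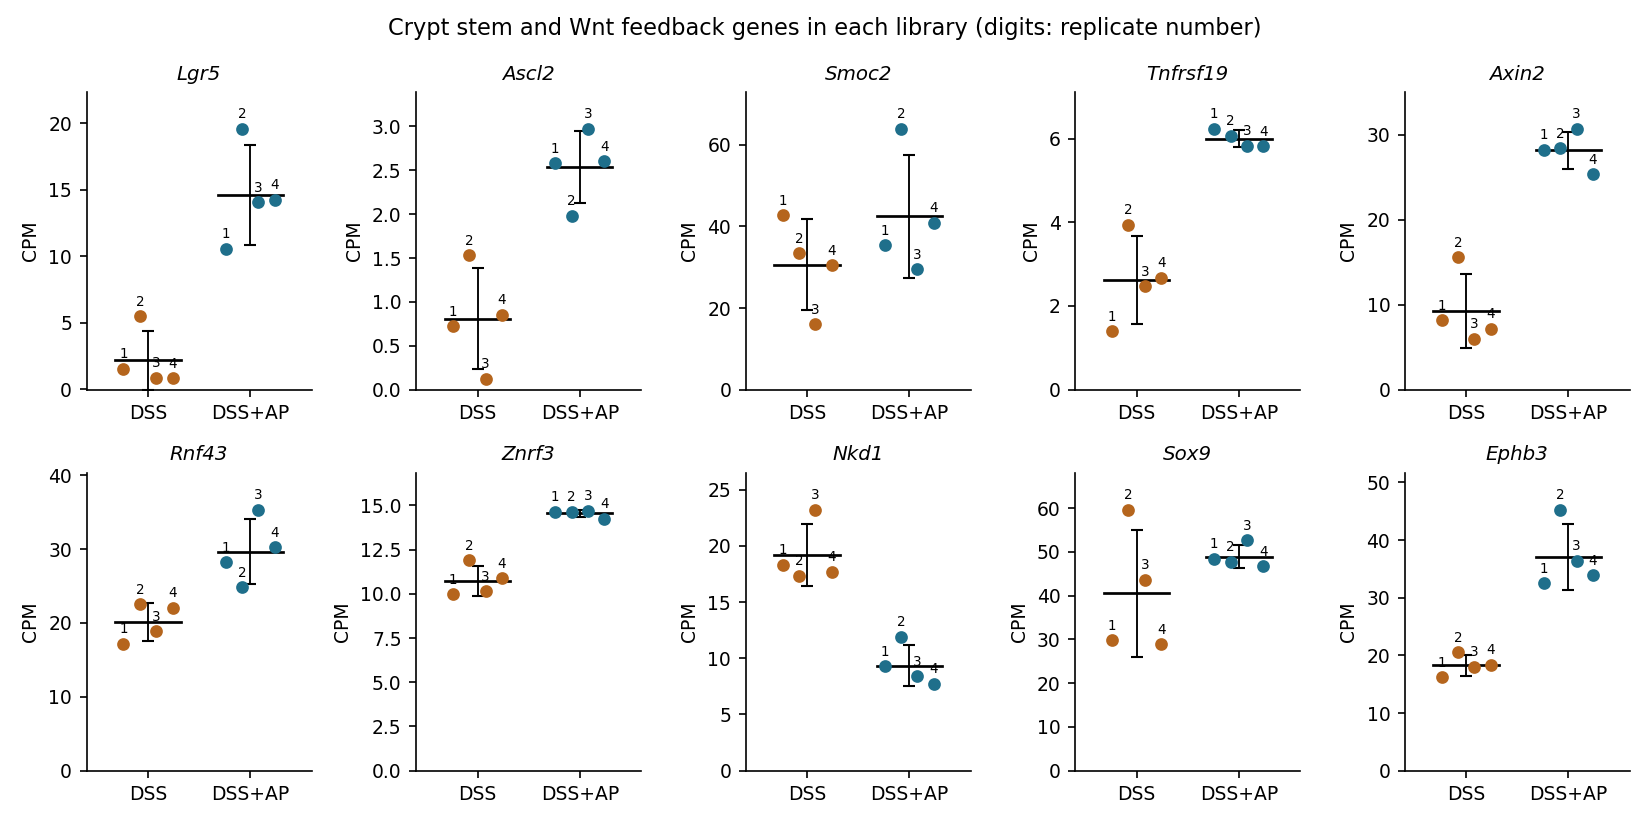
CPM of the 10 genes (vertical axes, each with its own scale from 0) in the 4 DSS and the 4 DSS+AP libraries. Points are libraries with their replicate number, lines are group means and bars are SD. The groups do not overlap for Lgr5, Ascl2, Tnfrsf19, Axin2, Rnf43, Znrf3 and Ephb3, which are higher in DSS+AP, nor for Nkd1, which is lower.

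Lgr5, the R-spondin receptor that marks cycling crypt stem cells (gene 14160; chromosome 10, 115450314 to 115587780, GRCm38.p6), showed the largest fold change of the 10. It stood at 1.56, 5.47, 0.867 and 0.852 CPM in DSS 1 to 4 and at 10.6, 19.6, 14.1 and 14.2 CPM in DSS+AP 1 to 4. Behind these values lay 28, 93, 14 and 14 estimated counts in DSS and 176, 336, 227 and 230 in DSS+AP. DSS 2 stood well above the other DSS libraries, yet its level was below that of every DSS+AP library. The mean rose 6.68-fold, and the log2 fold change was 2.73 ± 0.55 (edgeR adjusted p = 0.00825). Without DSS 2 it was 3.78, a linear fold over 1.5 times larger, and the other libraries left out in turn gave 2.47 to 2.92.

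Ascl2 encodes a basic helix-loop-helix transcription factor of crypt base stem cells (gene 17173; chromosome 7, 142966822 to 142969264). It was the least abundant of the 10 by counts, with 13, 26, 2 and 14 estimated counts in DSS and 43, 34, 48 and 42 in DSS+AP. As CPM these were 0.724, 1.53, 0.124 and 0.852 against 2.58, 1.98, 2.98 and 2.60. DSS 3 lay under the floor of 3 counts, so the size of the change is uncertain. Ascl2 rose by 1.63 ± 0.48 (edgeR adjusted p = 0.0323), but the call was lost when DSS 1 (0.0606) or DSS 4 (0.0752) was left out. It was also lost on leaving out DSS+AP 1 (0.0636), DSS+AP 3 (0.0813) and DSS+AP 4 (0.0680), each alone.

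Tnfrsf19, also called Troy, is a TNF-receptor family member found on Lgr5-positive stem cells (gene 29820; chromosome 14, 60963834 to 61046855). It stood at 1.39, 3.94, 2.48 and 2.68 CPM in DSS and at 6.24, 6.07, 5.83 and 5.82 CPM in DSS+AP. The DSS+AP libraries were thus close to each other, with an SD of 0.202 CPM beside 1.05 CPM in DSS. The rise was 1.19 ± 0.27 (edgeR adjusted p = 0.0123). Smoc2, a secreted matricellular protein that is also used as a stem cell marker (gene 64074; chromosome 17, 14279490 to 14404790), behaved differently. Its levels were 42.7, 33.4, 16.0 and 30.4 CPM in DSS and 35.5, 64.0, 29.6 and 40.9 CPM in DSS+AP. The groups overlapped widely, and the value of 0.47 ± 0.31 did not pass (edgeR adjusted p = 0.275).

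The feedback inhibitors moved in both directions. Axin2, a widely used readout of Wnt signalling (gene 12006; chromosome 11, 108917828 to 108950783), had 8.19, 15.6, 6.01 and 7.18 CPM in DSS and 28.3, 28.4, 30.8 and 25.4 CPM in DSS+AP. Again DSS 2 was the highest DSS library and remained under all of DSS+AP. Axin2 rose by 1.61 ± 0.27 (edgeR adjusted p = 0.00471), and by 2.04 without DSS 2. Of its exon bases 3.80% lie across from an exon of the gene Gm11670 on the other strand. Rnf43 (gene 207742; chromosome 11, 87663087 to 87735539) went from 17.2, 22.5, 18.8 and 22.04 CPM to 28.2, 24.8, 35.3 and 30.2 CPM. Its rise was 0.56 ± 0.13 (edgeR adjusted p = 0.0157). Its relative Znrf3 (gene 407821; chromosome 11, 5276329 to 5444847) went from 9.97, 11.9, 10.2 and 10.9 CPM to 14.6, 14.7, 14.7 and 14.2 CPM. The rise of Znrf3 was 0.44 ± 0.099 (edgeR adjusted p = 0.0121). The DSS+AP libraries of Znrf3 were within 14.2 to 14.7 CPM, all above the highest DSS library.

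Nkd1, the Dishevelled-binding inhibitor (gene 93960; chromosome 8, 88521342 to 88594887), was the one gene of the 10 that fell. It stood at 18.3, 17.4, 23.2 and 17.7 CPM in DSS and at 9.30, 11.9, 8.43 and 7.74 CPM in DSS+AP, so that every DSS library was above every DSS+AP library. The log2 fold change was -1.03 ± 0.16 (edgeR adjusted p = 0.00406). Leaving out each library in turn gave -1.17 to -0.93 and kept the call in all 8 cases. DSS+AP 2, which had the most Lgr5 of all libraries, also had the most Nkd1 of its group. Its mean levels of the smooth muscle and fibroblast lists described below were the highest of DSS+AP too (7.61 and 6.56 log2 CPM). In DSS the order differed: DSS 3 had the most Nkd1, while DSS 1 had the highest means of both lists (8.30 and 7.62 log2 CPM). Any part of these tissues in the Nkd1 values was not tested further.

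The opposite movement of Axin2 and Nkd1 is shown with the sequence before a start of each, beside that of Ascl2 as the transcription factor among the genes that rose. The RefSeq table (GRCm38.p6) held 8 windows for 6 of the 10 genes (Ascl2, Nkd1, Rnf43, Axin2, Tnfrsf19 and Ephb3). Lgr5, Smoc2, Znrf3 and Sox9 were not matched. Each window shown is the 250 bases before an annotated start, which for Axin2 and Nkd1 lies inside the span of the gene. It is written 5′ to 3′ on the gene's strand and has no annotated exon inside it. Capitals mark every CG dinucleotide.
Axin2, chr11:108920099-108920348, plus strand: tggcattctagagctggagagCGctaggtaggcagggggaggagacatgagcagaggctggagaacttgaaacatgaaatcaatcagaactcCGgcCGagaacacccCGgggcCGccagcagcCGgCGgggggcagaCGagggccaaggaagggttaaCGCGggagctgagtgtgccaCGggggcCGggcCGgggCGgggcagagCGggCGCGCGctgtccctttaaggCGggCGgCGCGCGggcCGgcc
Nkd1, chr8:88527383-88527632, plus strand: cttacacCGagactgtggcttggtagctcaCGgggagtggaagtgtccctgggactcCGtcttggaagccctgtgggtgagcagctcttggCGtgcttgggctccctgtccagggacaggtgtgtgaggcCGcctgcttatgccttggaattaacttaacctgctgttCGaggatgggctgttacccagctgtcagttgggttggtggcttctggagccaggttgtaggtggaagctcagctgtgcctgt
Ascl2, chr7:142969265-142969514, minus strand: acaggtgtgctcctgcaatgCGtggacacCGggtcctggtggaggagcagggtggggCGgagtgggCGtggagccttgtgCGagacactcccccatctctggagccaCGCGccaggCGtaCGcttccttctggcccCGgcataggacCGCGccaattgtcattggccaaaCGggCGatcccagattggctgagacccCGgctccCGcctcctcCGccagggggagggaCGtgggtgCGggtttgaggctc
The Axin2 window held 24 CG dinucleotides (69.2% G or C) and the Ascl2 window 19 (67.6%). The Nkd1 window held 6 (58.4%). The median over the 14620 windows of tested genes was 59.2% G or C. All 8 windows were searched on both strands for the core letters CTTTGA and CTTTGT, which many TCF sites contain. CTTTGA was present, as TCAAAG, in 1 of the 8, a Tnfrsf19 window that is partly exon and not shown, and CTTTGT in 0. Among windows of tested genes 10.7% held the first and 12.5% the second. These letters are a description of the windows only.

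The remaining genes place cells along the crypt. Ephb3, an ephrin receptor that keeps proliferating cells sorted toward the crypt base (gene 13845; chromosome 16, 21204620 to 21223309), had the smallest p of the 10. It stood at 16.2, 20.6, 18.0 and 18.4 CPM in DSS and at 32.5, 45.3, 36.5 and 33.9 CPM in DSS+AP. Both groups were tight relative to the gap between them, and the rise was 1.02 ± 0.13 (edgeR adjusted p = 0.00321). Sox9, a transcription factor of stem and progenitor cells (gene 20682; chromosome 11, 112782210 to 112787757), had 29.8, 59.7, 43.6 and 28.9 CPM in DSS and 48.5, 47.8, 52.7 and 46.8 CPM in DSS+AP. DSS 2 exceeded all of the DSS+AP libraries. Its value of 0.27 ± 0.22 did not pass (edgeR adjusted p = 0.358), while without DSS 2 it was 0.58 and passed (0.0161).

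**Figure D2:**
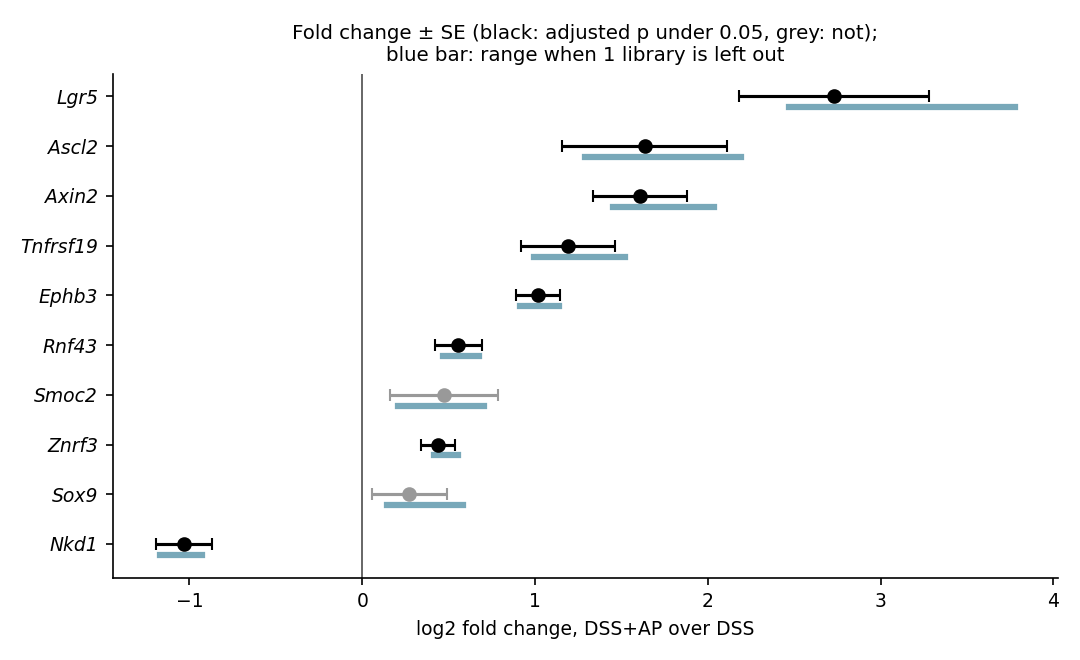
Log2 fold change of each gene (horizontal axis, DSS+AP over DSS, zero marked) with its SE, black where the edgeR adjusted p was under 0.05 and grey for Smoc2 and Sox9. The blue bars span the values when 1 library was left out, and those of Lgr5 reach from 2.47 to 3.78 while that of Nkd1 stays below zero.

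Within the DSS group DSS 2 was the highest DSS library for 8 of the 10 genes, the exceptions being Smoc2 and Nkd1, and for Nkd1 it was the lowest. The lowest DSS library varied, being DSS 1 for 4 genes, DSS 3 for 3, DSS 4 for 2 and DSS 2 for 1. In DSS+AP the ranks were more mixed, with DSS+AP 3 highest for 5 genes and DSS+AP 2 for 4. The spread also differed between the groups. The coefficient of variation (CV, SD over mean) was 101% in DSS and 25.6% in DSS+AP for Lgr5, 46.8% and 7.77% for Axin2, 39.9% and 3.37% for Tnfrsf19, and 35.7% and 5.34% for Sox9. Rnf43, Nkd1 and Ephb3 had the larger CV in DSS+AP, at 14.9%, 19.5% and 15.5% beside 12.8%, 14.3% and 9.83%. These spreads are descriptions, and the difference in spread was not tested.

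To compare genes with each other, CPM was divided by the kilobases of merged exons. On this scale Sox9 was the most abundant in both groups, at 9.79 ± 3.50 in DSS and 11.8 ± 0.631 CPM per kilobase in DSS+AP (mean ± SD, n = 4). In DSS it was followed by Smoc2 (4.41), Nkd1 (4.20), Rnf43 (3.07), Ephb3 (2.76), Axin2 (1.68), Znrf3 (1.36), Tnfrsf19 (0.554), Ascl2 (0.498) and Lgr5 (0.213). In DSS+AP the order of mean CPM per kilobase was Smoc2 (6.11), Ephb3 (5.58), Axin2 (5.12), Rnf43 (4.52), Nkd1 (2.05), Znrf3 (1.84), Ascl2 (1.56), Lgr5 (1.43) and Tnfrsf19 (1.26). Many neighbours could not be ordered. In DSS only Sox9 with Smoc2, Nkd1 with Rnf43 and Znrf3 with Tnfrsf19, and in DSS+AP only Sox9 with Smoc2 and Rnf43 with Nkd1, had ranges that did not overlap. Nkd1 thus lay within the range of Smoc2 in DSS and under Rnf43 in DSS+AP.

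Ratios between genes of the same library, chosen after the values were seen, describe how unequal the changes were. The log2 ratio of Axin2 to Nkd1 was -1.15, -0.15, -1.93 and -1.29 in DSS and 1.59, 1.25, 1.85 and 1.70 in DSS+AP. It was negative in all 4 DSS and positive in all 4 DSS+AP libraries, a difference of 2.73. The log2 ratio of Lgr5 to Axin2 was higher by 1.36 in DSS+AP and the groups did not overlap. Lgr5 to Ascl2 differed by 1.26, with groups that overlapped. Rnf43 to Znrf3 differed by 0.11, with groups that overlapped and means of 0.90 ± 0.096 in DSS and 1.01 ± 0.21 in DSS+AP (SD, n = 4). These 4 ratios are a description and carry no test, since the genes were paired for how they had moved.

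Epithelial transcripts were plentiful in all libraries. The 10 listed markers of the whole epithelium, such as Epcam, Cdh1 and Krt8, summed to 11680 to 13530 CPM in DSS and 12990 to 14680 CPM in DSS+AP, with 1 member higher and 1 lower. Their mean log2 CPM was 9.86 ± 0.096 in DSS and 9.97 ± 0.076 in DSS+AP (SD, n = 4). When each gene was expressed relative to this mean within its library, 7 genes were higher and Nkd1 lower, without overlap between groups. On this log2 scale Lgr5 differed by 2.94, Ascl2 by 1.69, Axin2 by 1.58, Tnfrsf19 by 1.13, Ephb3 by 0.90 (0.895 before rounding), Rnf43 by 0.44, Znrf3 by 0.33 and Nkd1 by -1.15. Each of these 8 had an exact two-sided permutation p of 0.0286, and 0.0357 after adjustment over the 10 genes. The former is the smallest p that 70 assignments allow, and any gene whose groups do not overlap reaches it. The share of all tested genes whose groups separate on this scale was not worked out. Smoc2 (0.38, adjusted exact permutation p = 0.429) and Sox9 (0.23, 0.349) did not pass. Without any 1 of the DSS+AP libraries the adjusted exact permutation p of the 8 genes was 0.0714, so 0 passed. With DSS 1, DSS 2, DSS 3 or DSS 4 left out instead, the genes that passed numbered 7, 9, 7 and 8. Fewer assignments exist with a library left out, whichever its group. The differences themselves then ranged from 2.63 to 3.50 for Lgr5 and from -1.29 to -1.08 for Nkd1. With the epithelial mean as a covariate in edgeR, Lgr5, Axin2, Ephb3, Smoc2 and Nkd1 passed. Under that covariate Smoc2 stood at 1.10 (edgeR adjusted p = 0.0250). The calls of Ascl2 (0.101), Tnfrsf19 (0.0687), Rnf43 (0.102) and Znrf3 (0.0673) were lost, at log2 fold changes of 1.73, 1.004, 0.45 and 0.42 beside 1.63, 1.19, 0.56 and 0.44 without it.

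Other parts of the tissue differed between the same libraries. Of 12 genes of dividing cells, 3 were higher and 0 lower by edgeR (10 with an unadjusted p under 0.05, and 10 higher by DESeq2), and their mean log2 CPM was 5.40 ± 0.63 in DSS and 6.22 ± 0.23 in DSS+AP (SD, n = 4). Over all 14578 tested genes 6249 had an unadjusted p under 0.05, and DESeq2 called 2107 higher and 3140 lower. DSS 1 reached the DSS+AP range for dividing cells (6.12). Within its group it had the most Smoc2, more Lgr5 and Axin2 than DSS 3 and DSS 4, and the least Tnfrsf19, Rnf43, Znrf3 and Ephb3. Of 10 tested genes of regenerating, fetal-like epithelium, which crypts express after injury, 0 were higher and 6 lower by edgeR. DESeq2 called 1 higher and 6 lower. The keratin of this list, Krt7, stood at 0.63 ± 0.27 (edgeR adjusted p = 0.104). Fibroblast and smooth muscle genes were lower in the same libraries, as given below, and their part in the values of this list was not tested. Markers of surface colonocytes were higher in 2 of 10 and of goblet cells higher in 2 and lower in 1 of 9. The layers below the epithelium were lower: 9 of 10 smooth muscle genes, 9 of 10 fibroblast genes, 6 of 6 enteric glia genes and 8 of 9 leukocyte genes fell. Smooth muscle genes summed to 2930 to 4641 CPM in DSS and 1462 to 2748 CPM in DSS+AP, fibroblast genes to 2430 to 5587 and 1312 to 2013 CPM, and glia genes to 29.4 to 55.7 and 7.75 to 13.4 CPM. None of their defining markers was at or under 3 counts in all libraries. Posterior Hox genes, which follow position along the gut, had a mean log2 CPM of 3.13 ± 0.56 in DSS and 1.80 ± 0.53 in DSS+AP. However, 0 of their 7 tested members passed by edgeR or DESeq2, and 1 had an unadjusted p under 0.05. The members were unlike each other, from -3.89 ± 1.36 for Hoxb13 to 0.41 ± 0.80 for Hoxd9, and the groups overlapped for each of the 7.

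**Figure D3:**
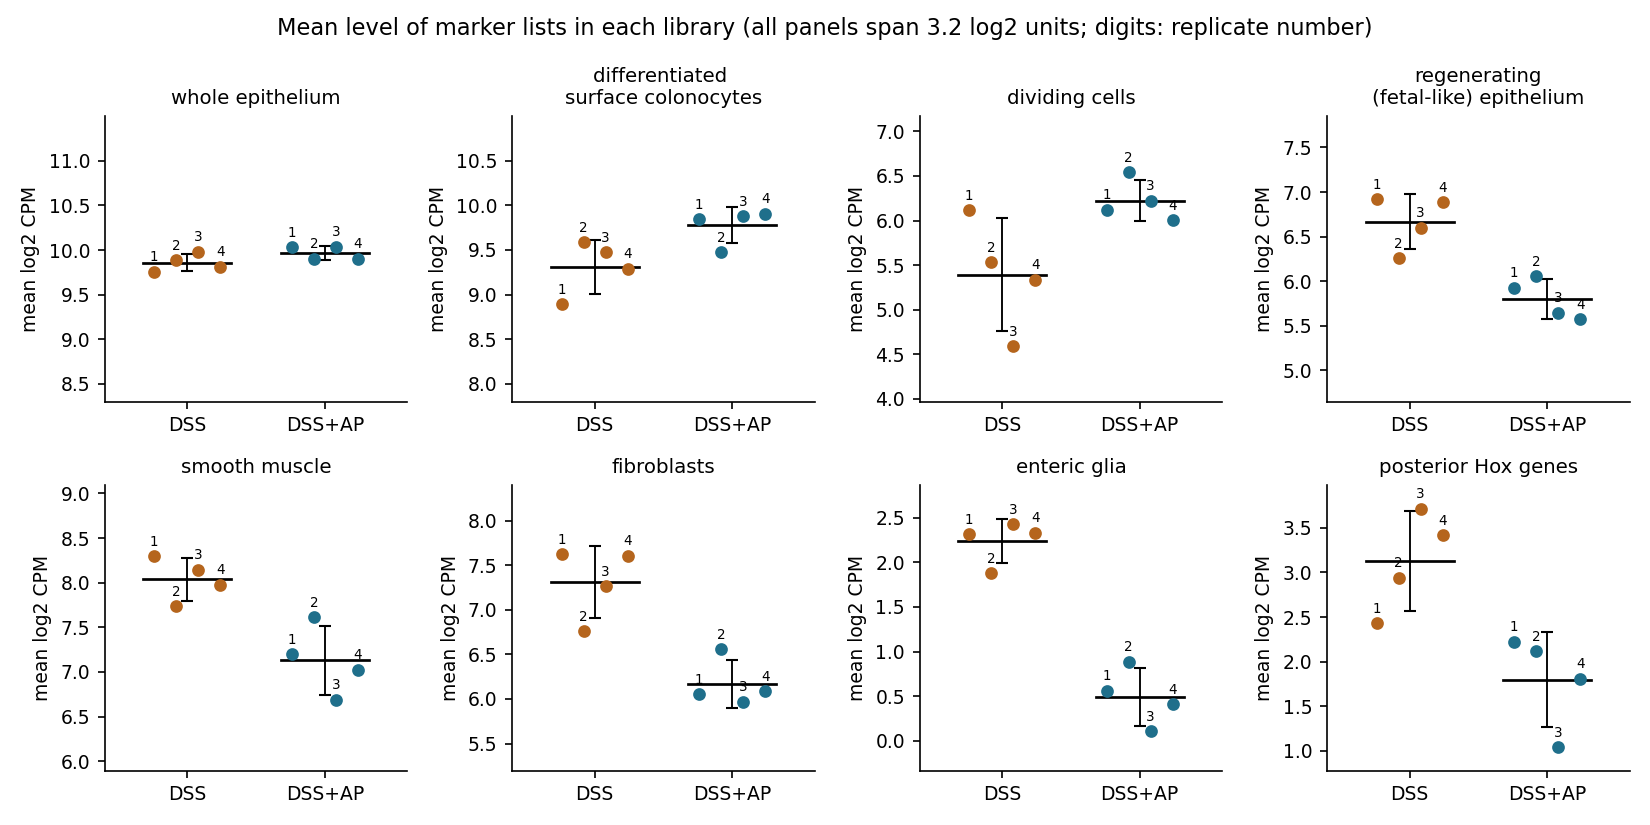
Mean log2 CPM of 8 marker lists (vertical axes) in the DSS and DSS+AP libraries, with points, means and SD as before. The epithelial mean differs by 0.11 between groups. The means of regenerating epithelium, smooth muscle, fibroblasts, glia and posterior Hox genes are lower in every DSS+AP library than in any DSS library.

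The smooth muscle mean separated the groups completely, so it and the bacterium cannot be told apart in these 8 libraries. With it as a covariate in edgeR 0 of all tested genes passed, and 2051 had an unadjusted p under 0.05. The log2 fold changes were then 2.37 for Lgr5, 1.12 for Axin2, 1.11 for Ephb3, 0.75 for Tnfrsf19, 0.65 for Ascl2, 0.33 for Znrf3, 0.01 for Rnf43 and -0.56 for Nkd1. Smoc2 went up to 1.18, and Sox9 changed sign, to -0.16. With the posterior Hox mean, 0 passed as well (2352 with an unadjusted p under 0.05), and the values were 2.16 for Lgr5, 1.48 for Tnfrsf19, 1.198 for Axin2, 1.11 for Ephb3, 0.88 for Ascl2, 0.44 for Znrf3, 0.39 for Rnf43, 0.26 for Sox9, 0.22 for Smoc2 and -0.72 for Nkd1. The part of these tissues in the changes of the 10 genes was not tested further.

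Other genes of the crypt base moved in both directions. Of 16 other crypt base stem cell genes, 14 could be tested (not Olfm4 and Sp5), of which 3 were higher and 1 lower, with a median log2 fold change of 0.21. Cdca7, a Myc-responsive gene of dividing progenitors, went from 38.7 ± 14.0 to 71.0 ± 5.46 CPM (mean ± SD, n = 4) and rose by 0.88 ± 0.23 (edgeR adjusted p = 0.0211). Mex3a, an RNA-binding protein of slowly cycling stem cells, rose by 0.99 ± 0.27 and Hopx, a homeodomain protein used to mark reserve stem cells, by 1.17 ± 0.23. Igfbp4, a binding protein of insulin-like growth factors that mesenchymal cells make too, fell from 356 ± 119 to 117 ± 19.2 CPM, a change of -1.61 ± 0.24. The count of Hopx is uncertain, since 27.2% of its exon bases lie across from exons on the other strand. Cdca7 was lost without DSS 4 (edgeR adjusted p = 0.0582) or DSS+AP 3 (0.0553), and Mex3a when DSS+AP 4 or any DSS library but DSS 2 was left out (0.0504 to 0.0650). Without DSS 2 the list had 7 higher genes, and without DSS 4 it had 1.

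Other Wnt targets and feedback genes also moved in both directions. Of 16, 13 could be tested (not Dkk4, Notum and Tdgf1), of which 1 was higher and 5 lower, with a median of -0.45. With the epithelial mean as a covariate in edgeR 0 were higher and 1 lower, and Dkk2 went from -2.30 to -1.24 (adjusted p = 0.138). Nkd2, the relative of Nkd1, went from 6.25 ± 0.724 to 3.71 ± 0.517 CPM (mean ± SD, n = 4), a fall of -0.75 ± 0.16 (edgeR adjusted p = 0.0101). Dkk3 changed by -1.18 ± 0.14, Dkk2, a secreted Wnt modulator, by -2.30 ± 0.61, and Kremen1, a receptor of Dickkopf proteins, by -0.45 ± 0.098. Dkk2 lay at the floor of 3 counts in DSS+AP 3 (0.186 CPM) and its groups overlapped, so the size of its change is uncertain. The remaining called genes, named after their values were seen, were Trib2 at -0.67 ± 0.19 and Cd44, an adhesion receptor of crypt cells, at 0.62 ± 0.18. Myc at 0.15 ± 0.18 and Ccnd1 at 0.27 ± 0.20, chosen in the same way, did not pass. Leaving out any of DSS 1, DSS 4, DSS+AP 1 and DSS+AP 4 ended the call of Dkk2 (adjusted p by edgeR of 0.0569 to 0.0641) and left 3 lower genes in the list, and without DSS+AP 2 Dkk2 stood at -2.955. Trib2 was lost in the same 4 cases and without DSS+AP 3. Cd44 was lost when DSS 3, DSS 4 or any DSS+AP library but DSS+AP 2 was left out, and without DSS 2 there were 3 higher genes. Of the exon bases of Ccnd1, 23.4% face exons on the other strand, so its count is uncertain. Fibroblast genes were lower in 9 of 10 in the same libraries, and their part in the values of this list was not tested.

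The R-spondins and Wnt receptors stand upstream of these targets. Of 21 R-spondin and Wnt receptor genes, 18 could be tested (not Rspo4, Lgr6 and Fzd10), of which 1 was higher and 7 lower, with a median of -0.12. With the epithelial covariate 0 were higher and 4 lower. Rspo3, an R-spondin made by stromal cells, went from 20.2 ± 5.15 CPM to 4.46 ± 1.90 CPM (mean ± SD, n = 4). It fell by 2.18 ± 0.30 on the log2 scale (edgeR adjusted p = 0.00325), and 13.1% of its exon bases face exons on the other strand, so its count is uncertain. Rspo1 changed by -2.01 ± 0.25, the Wnt receptor gene Fzd1 by -1.02 ± 0.16 and Ror1 by -1.18 ± 0.23. Lgr4, the relative of Lgr5 that is expressed throughout the crypt, fell from 201 ± 19.5 to 152 ± 1.96 CPM (-0.40 ± 0.080; edgeR adjusted p = 0.00787). Lgr4, Fzd4 (-0.49 ± 0.12), Ror2 (-0.50 ± 0.13) and the one higher gene, Fzd9 (1.45 ± 0.35), were named after their values were seen. Fzd4 was lost when DSS 4 or any DSS+AP library but DSS+AP 2 was left out, and Ror2 held only without DSS 2 or DSS+AP 2. In the same libraries fibroblast genes, the main stromal list, were lower in 9 of 10, as given above, and their part was not tested.

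Of 22 genes of Wnt signal transduction inside the cell, 0 were higher and 3 lower by edgeR, with a median of 0.05, and with the epithelial covariate 1 was lower. An unadjusted p under 0.05 was found for 6 of them, beside 6249 of all 14578 tested genes. DESeq2 called 2 higher and 4 lower, beside 2107 and 3140 of all tested genes. Tcf7l2, the main TCF factor of intestinal epithelium, went from 70.01 ± 2.87 to 55.3 ± 5.49 CPM (mean ± SD, n = 4), a change of -0.34 ± 0.082 (edgeR adjusted p = 0.0158) that was lost without DSS+AP 1 (0.0849). Pygo1, a beta-catenin cofactor, changed by -1.03 ± 0.23 and Porcn, which lipidates Wnt ligands, by -1.04 ± 0.24.

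**Figure D4:**
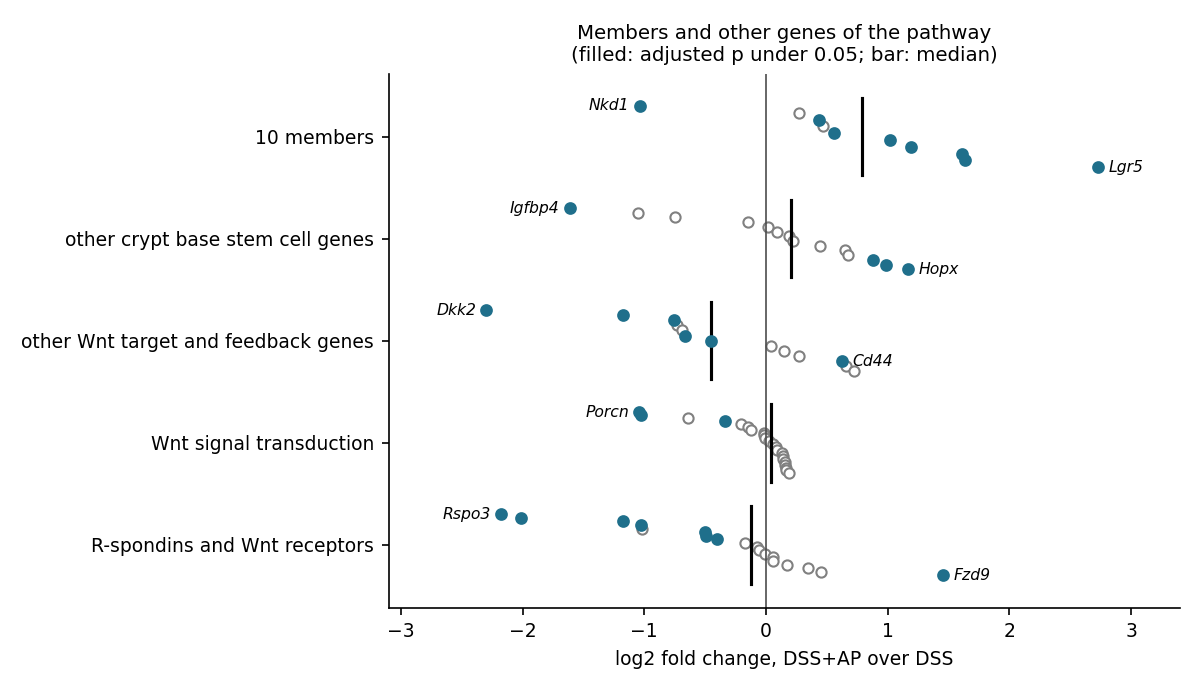
Log2 fold change (horizontal axis, DSS+AP over DSS) of the 10 genes and of the tested genes of 4 other lists, each point a gene, filled where the edgeR adjusted p was under 0.05, with the list's median as a bar. The 10 genes have a median of 0.79, and the other lists have medians from -0.45 to 0.21.

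The pattern of Lgr5 over the 8 libraries was compared with that of 13559 other genes by the root mean square difference of mean-centred log2 CPM. The nearest were Mmp7 (0.63), a matrix metalloproteinase made by epithelial cells, Mal (0.71), a lipid raft protein of apical transport, Nxpe2 (0.75), Gli1 (0.80), the transcription factor and target of Hedgehog signalling, and Piwil4 (0.90, from 0.8953). Gli1 stood at 2.62, 5.77, 2.04 and 1.77 CPM in DSS and at 7.68, 7.71, 11.8 and 9.23 CPM in DSS+AP, with DSS 2 the highest DSS library as for Lgr5. Among the 10 genes, Axin2 (0.81) and Ascl2 (0.90, from 0.9035) were as near, with 4 and 5 other genes nearer. Tnfrsf19 had 44 genes nearer, Ephb3 124 and Nkd1 11864. The 5 genes were picked for this likeness, so that they were higher in DSS+AP follows from the choice and is given without a test. Mmp7 shares 11.5% of its exon bases with the other strand, so its count is uncertain, and it averaged under 1 CPM in DSS. The measure is a description over 8 libraries in 2 groups and carries no test.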

How the data were processed

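Messenger RNA libraries of mouse colon were sequenced from 4 DSS and 4 DSS+AP mice, grouped by the titles in the labels. Per the submitters' processing notes the build was GRCm38.p6, and RSEM 1.2.8, Bowtie2 2.2.5 and HISAT2 2.1.0 are listed there without roles. What the authors deposited are estimated counts for each gene, not scaled to depth, and 10.7% to 11.5% of them per library were not whole. The sources used here do not say whether counting used strand. Reads shared with similar genes are divided by estimation, and a gene facing another on the opposite strand may carry its reads.

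Counts were rounded, filtered with filterByExpr (14578 of 18806 genes kept), scaled by TMM and tested with the robust quasi-likelihood F test of edgeR 4.0.16 (R 4.3.3) without covariates, with an adjusted p threshold of 0.05 over all tested genes. SEs come from the estimate and its F statistic. Log2 CPM used a prior count of 2. Single values were compared by exact two-sided permutation over 70 assignments. No 2 libraries of a group were copies of each other: their counts differed by a chi-square of 11.2 or more per gene. Library numbers are the replicate numbers in the titles.

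The 10 genes, the gene lists and the tests were chosen with earlier results of these data known. There were 17 lists with 182 entries. Genes named are the 10, up to 4 called genes of each pathway list by smallest p, up to 3 of each marker list (given here by counts), and the 5 nearest to Lgr5. Those chosen after their values were seen are marked. Alternatives were other scaling (RLE, upper quartile), no filter or 1 CPM in 4 libraries, no robust estimation, DESeq2 1.42.0, limma-voom (limma 3.58.1), the replicate block, 3 covariates and leaving out each library. Gene positions and promoter windows are from RefSeq (GRCm38.p6), exons from GENCODE M21 of the same build. On simulated data with 14491 genes for DSS+AP against DSS, edgeR recovered 16.4%, 73.1% and 95.5% of genes changed 1.5-fold, 2-fold and 4-fold, with 6 false calls. Figures were drawn with matplotlib 3.10.9.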

Additional observations from a re-analysis of the deposited data

Results flagged for a closer look

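Of the 20 sets of 4 libraries checked (10 genes in 2 groups), 3 held a library far from the others, where chance gives about 1 in 20. DSS 2 stood apart for Lgr5, at 5.47 CPM against 0.852 to 1.56 CPM in the other DSS libraries. DSS 3 stood apart for Nkd1, at 23.2 CPM against 17.4 to 18.3 CPM. DSS+AP 4 stood apart for Znrf3, at 14.2 CPM (14.25 before rounding) against 14.6 to 14.7 CPM, a gap far smaller than the difference between the groups.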

How the results depend on the processing

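The 7 higher genes and 1 lower gene of the 10 were also called with RLE or upper quartile factors, no low-count filter, 1 CPM in 4 libraries, no robust estimation, DESeq2 and limma-voom. Leaving out 1 library gave 6 to 8 higher and 1 lower. With the epithelial covariate 4 of the 10 were higher (Lgr5, Axin2 and Ephb3 of the 7, and Smoc2, not called without it) and 1 lower. The smooth muscle and posterior Hox covariates left 0 higher and 0 lower of the 10 and 0 and 0 of all genes. Sox9 reversed under the muscle covariate, to -0.16. Over all tested genes the higher numbered 1288 and the lower 2974. The higher numbered 1950 with no low-count filter, 2107 with DESeq2, 582 with the replicate block and 548 with the epithelial covariate; the lower numbered 1967 and 1430 in the last 2. Leaving out 1 library gave 525 to 2101 higher and 1985 to 3086 lower; the higher numbered 525 without DSS 4, 565 without DSS+AP 3, 762 without DSS+AP 4, 847 without DSS 3 and 2101 without DSS 2. The 8 genes past the threshold relative to the epithelial mean became 0 when any 1 DSS+AP library was left out. They became 7 to 9 when any 1 DSS library was left out. DESeq2 called 5 higher among the other crypt base genes, 2 among the other Wnt targets and 10 among genes of dividing cells, against 3, 1 and 3 by edgeR. Myc, not called, ranged from -0.01089 (without DSS+AP 2) to 0.28 with 1 library left out. The cause of these shifts was not tested. Deviations from the group means had correlations of -0.45 to 0.36 between same-numbered libraries. These lay within the -0.47 to 0.51 between differently numbered libraries. Such few correlations cannot decide whether the numbers pair mice, and the labels do not say that they do. The replicate block left 4 higher and 1 lower of the 10, with edgeR adjusted p of 0.0878 for Ascl2, 0.0544 for Rnf43 and 0.0515 for Znrf3. Depth limits Ascl2, with 55 estimated counts over the 4 DSS libraries, and Lgr5, with 149.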
